A study of Mus musculus with 5 samples.

Results

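The genes described here encode enzymes that modify foreign and reactive small molecules, together with the enzymes that use glutathione. They were taken from a table of scaled read counts in lung leukocytes by the start of the gene symbol, which had to be that of a cytochrome P450, a flavin monooxygenase, an aldehyde dehydrogenase, an aldo-keto or carbonyl reductase, a quinone reductase, a carboxylesterase, an epoxide hydrolase, a glutathione transferase or peroxidase, a sulfotransferase or a UDP-glucuronosyltransferase. Membership also required 2 or more of the 5 libraries to reach a value of 10. Of 14462 rows in the table, 98 had such a name and 83 of these met the level, in 13 families. The level was read across both groups and made no use of their difference. None of the 83 passed through one group alone, but 11 needed a value from an IR library to pass, and none of those 11 is among the genes called below. On the threshold, Gpx7 (second highest value 10.3) and Ces2g (11.7) lay just inside, and Cyp2r1 (8.2) and Ugt1a6b (7.5) just outside.

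The libraries came from CD45+ cells sorted out of mouse lung; CD45, encoded by Ptprc, is carried by nearly all leukocytes. All mice bore MC38/MC38 tumours (MC38 is a mouse colon adenocarcinoma line), and lungs were collected 3 days post IR. The groups were IR, with 2 libraries, in which MC38 tumours were irradiated, and ctrl, with 3 libraries. The labels do not give the strain, sex or age of the mice, the radiation dose, or whether each library came from its own animal, so p-values measure no more than how far these 5 samples spread, and that spread may be technical.

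Enzymes of this kind work in sequence. Monooxygenases of the P450 and flavin families add oxygen to a lipophilic molecule, reductases, dehydrogenases and hydrolases handle the carbonyls, aldehydes, quinones, esters and epoxides that are present or formed, and transferases then attach glutathione, sulfate or glucuronic acid so that the product can be exported. Glutathione peroxidases spend glutathione on hydrogen peroxide and lipid peroxides instead. In the lung, club cells of the airway lining are known for high levels of several of these enzymes, while leukocytes are better known for glutathione peroxidases and for enzymes that act on leukotrienes. Several members, such as Cyp51 of sterol synthesis, act mainly on the body's own molecules and belong here by name only.

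Scaled totals were 7544034 and 8414753 in IR replicates 1 and 2, against 7232126 to 7425923 in the ctrl libraries. The smallest value above 0 lay between 0.7 and 0.9 per library; the reads behind a value are not known, so no counting interval is given. IR replicate 2 stood apart on the first principal component of all genes (131.5, against -6.0 in IR replicate 1 and -51.9 to -30.5 in the ctrl libraries), and results are therefore also given without it. All 8 leukocyte markers were detected, and Ptprc had 17369 and 27247 in the IR libraries, against 15842, 15543 and 15788 in the ctrl libraries. Markers of cells that the sort should remove were also present. The 10 club cell markers, led by the secretoglobin Scgb1a1, were all detected and summed to 114372 and 56738 in the IR libraries, against 21093, 25151 and 21073 in the ctrl libraries. Among them Scgb1a1, Scgb3a2 and Sec14l3 rose, and the other 7 did not pass the test. By contrast, the fibroblast genes Col1a1, Col1a2, Col3a1, Pdgfra and Pdgfrb were each at 0 in at least 1 library. A bulk library cannot tell more cells of a type from more RNA per cell, and the part of other cells in the enzyme genes' differences was not tested.

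The comparison of IR with ctrl addresses how RNA of the sorted CD45+ lung fraction differs after the tumour is irradiated. Club cell markers were present in that fraction, so a difference cannot be assigned to leukocytes. Of the 83 enzyme genes, 10 rose, 0 fell and 73 did not pass the test (limma on log2(value + 1), Benjamini-Hochberg adjusted p under 0.05 over all 12777 genes tested). Those that rose included Cbr2, Aldh1a1, Aldh1a7, Fmo2, Gsta3, Gsta4, Gstk1, Mgst1 and Sult1d1. The 10 make up 12.05% of the 83, whereas 1.14% of all genes tested were called higher and 0.36% lower. At an unadjusted p under 0.05, 22 of the 83 passed (26.5%, against 15.0% of all genes tested), 1 of them (Gstp3) with a negative fold change. Fold changes are IR over ctrl on the log2(value + 1) scale. Their median was 0.74 over the 83 and -0.05 over all genes tested; 68 of the 83 were positive, against 46.8% of all genes. Both IR libraries lay above all ctrl libraries for 29 of the 83 genes (34.9%, against 15.2% of all genes tested) and below them for 2 (2.41%, against 16.3%). These genes were chosen with results of the same data known, so the counts describe them and are no independent test.

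**Figure D1:**
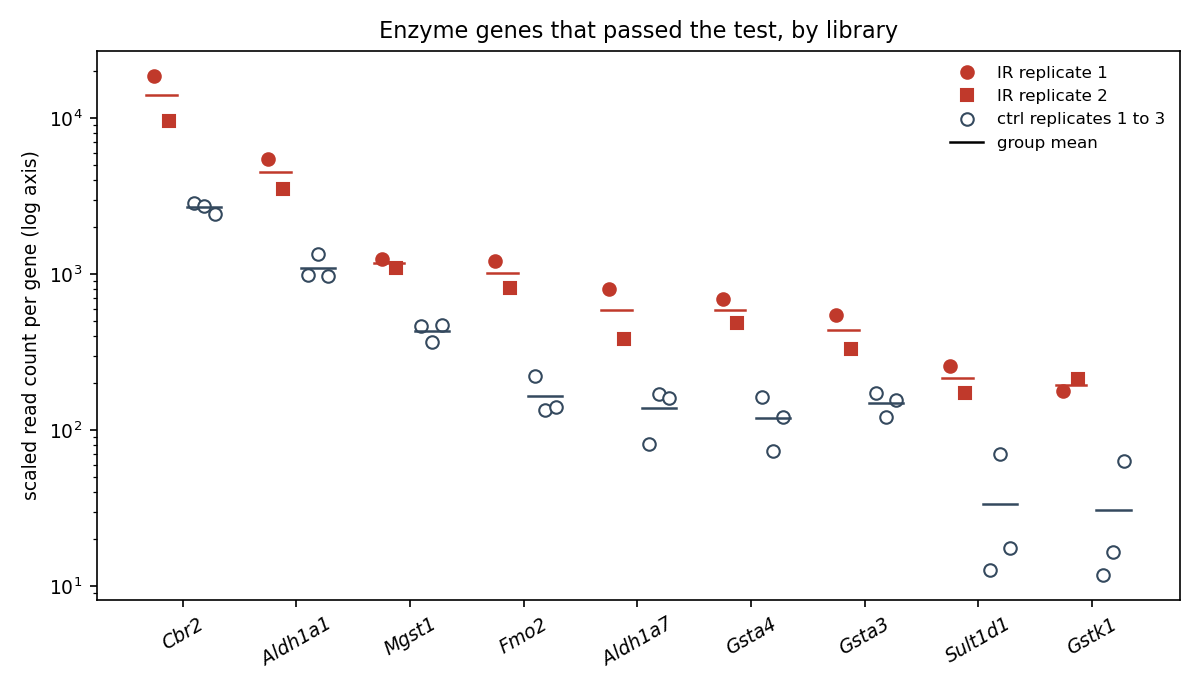
Scaled read count per gene on a log axis for 9 enzyme genes that passed the test, with IR libraries in red and ctrl libraries as open circles and group means as lines. In each gene both IR values lie above all 3 ctrl values, and IR replicate 1 is the higher of the pair in 8 of the 9 genes, Gstk1 being the exception.

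In 9 of the 10 genes IR replicate 1 exceeded IR replicate 2, as in 52 of the 83 members and 51.9% of all genes tested. Among all 146 genes called higher, IR replicate 1 was the higher library in 31 (0.243% of all genes tested) and IR replicate 2 in 115. Without IR replicate 2, 10 enzyme genes passed, 8 of them the same, where 0.368% of all genes tested were called higher. Without IR replicate 1, 7 passed (8.43%), 6 of them the same, where 3.60% of all genes were called higher. Leaving out ctrl replicate 1, 2 or 3 left 5, 7 and 7, each a subset of the 10, where 0.219%, 0.274% and 0.869% of all genes were called higher. Cbr2, Aldh1a1, Fmo2, Gsta4 and Mgst1 passed whichever library was left out. With no filter on low values, when all rows were tested, 4 of the 10 passed: Cbr2, Aldh1a1, Fmo2 and Mgst1. Where a group kept 1 library, that library was assumed to vary like those of the other group.

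**Figure D2:**
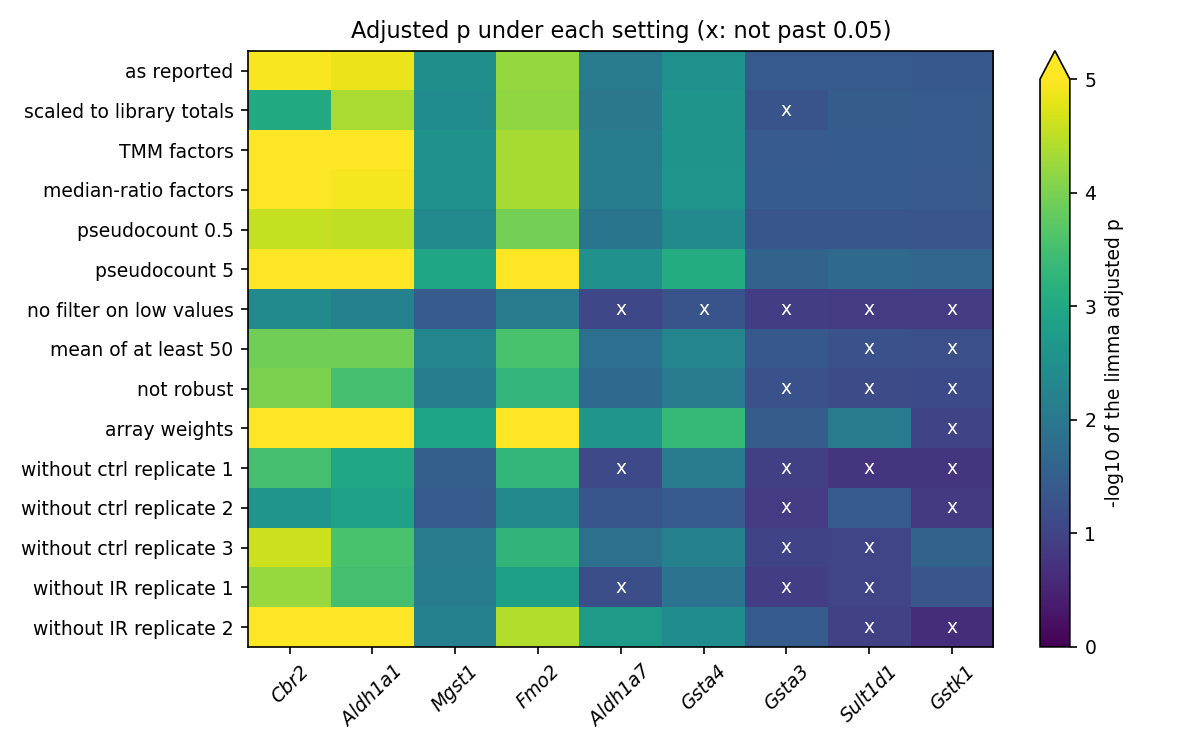
Limma adjusted p, as -log10, for 9 of the 10 genes under each processing setting (rows), with x where the gene did not pass 0.05. Cbr2, Aldh1a1, Fmo2 and Mgst1 have no x, Gsta4 has 1, and Gsta3, Gstk1 and Sult1d1 have 7 each.

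Promoters are shown for members that rose, so that a pair of short motifs linked to regulation of such enzymes can be looked for in them. These genes share a direction because they were selected by it, and shared regulation was not tested. RefSeq promoter windows of GRCm38.p6, running from 250 bases before to 50 after a gene's start, were matched for 71 of the 83 genes and 8 of the 10 that rose. The antioxidant response element core, bound by NRF2, was searched as TGACNNNGC, and the xenobiotic response element core, bound by the aryl hydrocarbon receptor, as TNGCGTG, on both strands. No base was shared between matches of the 2 motifs in the windows printed. Capitals mark the match: an antioxidant core in Gsta3 and, on the minus strand relative to the gene, in Mgst1, a xenobiotic core in Sult1d1, likewise reversed, and no match in Cbr2. Cbr2 is shown as the most abundant of the genes that rose. A second RefSeq window of Mgst1 held neither motif.
Gsta3, chr1:21240335-21240634, plus strand: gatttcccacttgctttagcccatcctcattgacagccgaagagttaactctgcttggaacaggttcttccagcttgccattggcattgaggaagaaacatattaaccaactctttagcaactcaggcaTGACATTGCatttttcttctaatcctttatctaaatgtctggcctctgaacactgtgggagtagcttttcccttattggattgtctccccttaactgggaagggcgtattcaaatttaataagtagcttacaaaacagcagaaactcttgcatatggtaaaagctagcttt
Mgst1, chr6:138140277-138140576, plus strand: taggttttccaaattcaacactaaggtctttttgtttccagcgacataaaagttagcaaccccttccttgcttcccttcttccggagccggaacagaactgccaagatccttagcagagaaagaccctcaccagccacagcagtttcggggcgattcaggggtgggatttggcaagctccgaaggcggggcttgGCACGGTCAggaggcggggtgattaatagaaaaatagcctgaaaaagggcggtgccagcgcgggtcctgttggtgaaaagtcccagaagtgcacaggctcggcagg
Sult1d1, chr5:87568957-87569256, minus strand: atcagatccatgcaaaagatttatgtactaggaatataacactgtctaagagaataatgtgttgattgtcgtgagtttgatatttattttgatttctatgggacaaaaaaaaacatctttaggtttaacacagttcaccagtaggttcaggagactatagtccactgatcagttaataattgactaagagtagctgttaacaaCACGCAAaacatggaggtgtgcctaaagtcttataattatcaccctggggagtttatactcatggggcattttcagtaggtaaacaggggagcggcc
Cbr2, chr11:120731972-120732271, minus strand: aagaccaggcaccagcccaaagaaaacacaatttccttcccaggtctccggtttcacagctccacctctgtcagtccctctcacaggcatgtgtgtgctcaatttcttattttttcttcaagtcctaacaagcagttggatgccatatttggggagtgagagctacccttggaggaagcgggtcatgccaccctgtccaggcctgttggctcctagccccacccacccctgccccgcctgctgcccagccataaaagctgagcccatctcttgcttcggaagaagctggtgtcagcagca

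The antioxidant core was found in the windows of 2 of 8 matched genes that rose, 3 of 63 that did not pass, and 17.0% of all tested genes with a window. The xenobiotic core was found in 1 of 8 and 5 of 63, and in 9.44% of all tested genes with a window. Over the 71 matched members the shares were 7.04% and 8.45%. The windows of members had a median GC content of 54.0% with 7 CpG sites, and those of all tested genes 60.7% with 20; for the members that rose they were 44.0% with 3. A match is a description of letters and not evidence of binding, and no match says only that these letters are not in this window.

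**Figure D3:**
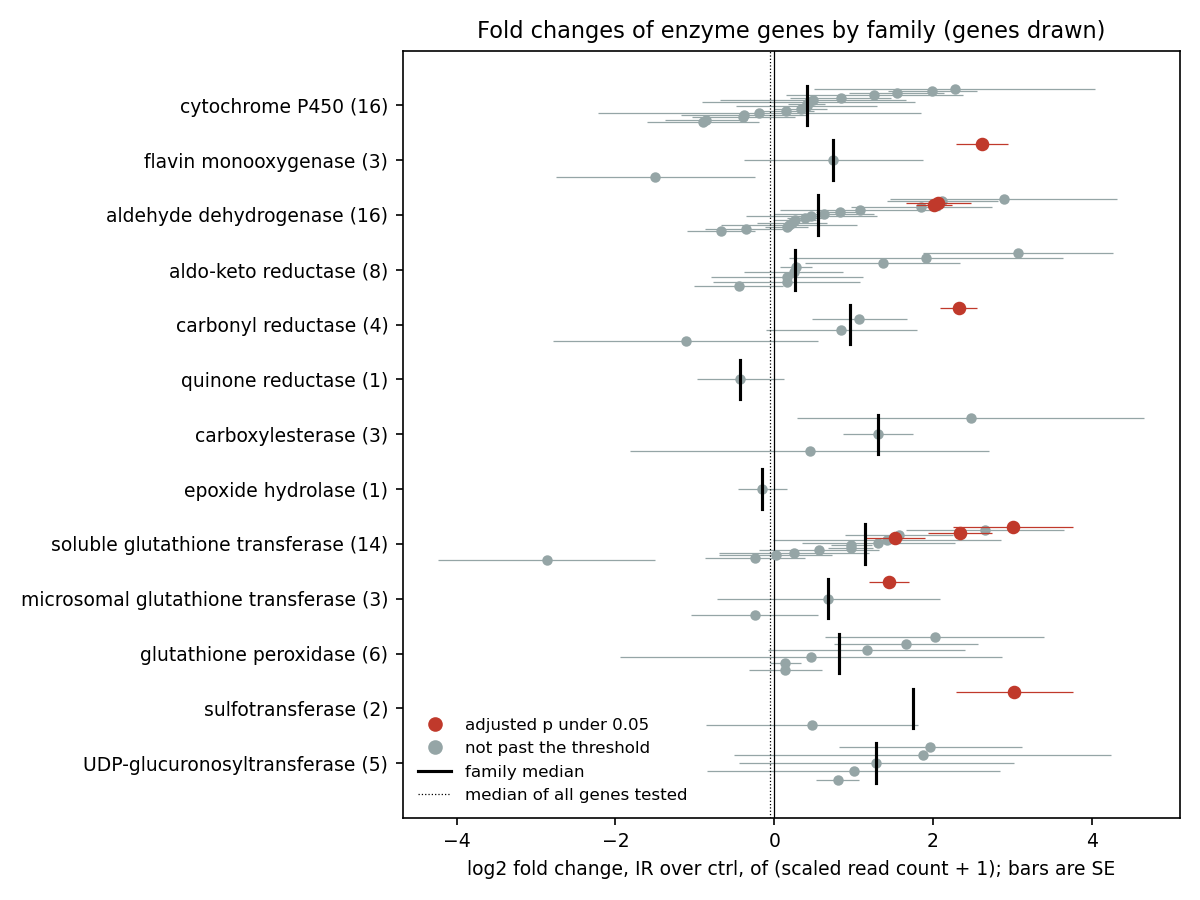
Log2 fold change of IR over ctrl with its SE for the enzyme genes drawn, grouped by family, with genes that passed the test in red and medians of the genes drawn as black bars. Called genes lie in the flavin monooxygenase, aldehyde dehydrogenase, carbonyl reductase, glutathione transferase and sulfotransferase families, all to the right of 0, while no P450 passed.

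The flavin monooxygenases oxidise nitrogen and sulfur in small molecules, and Fmo2 is the member best known from lung. Fmo2 (chromosome 1, 162874317 to 162898726, minus strand of GRCm38) had 1219 and 815 in the IR libraries, against 221, 135 and 140.1 in the ctrl libraries. Its groups did not overlap, and the lower IR value was several times the highest ctrl value. The log2 fold change was 2.62 ± 0.33 (SE, adjusted p = 6.25e-05 by limma). Its neighbour Fmo1, which lies on the same chromosome, had 39.3 and 2.5 in the IR libraries, against 93.9, 12.8 and 27.7 in the ctrl libraries, groups that overlap, with a log2 fold change of -1.50 ± 1.25 (SE, adjusted p = 0.617 by limma).

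Aldehyde dehydrogenases oxidise aldehydes to acids. Of 16 members, 2 rose, 0 fell and 14 did not pass, where 1.14% of all genes tested were called higher and 0.36% lower. The family median log2 fold change was 0.55, against -0.05 over all genes tested. Aldh1a1, which makes retinoic acid from retinaldehyde, had 5494 and 3498 in the IR libraries, against 984, 1338 and 967 in the ctrl libraries. Every IR value was more than double every ctrl value, and the log2 fold change was 2.02 ± 0.22 (SE, adjusted p = 1.38e-05 by limma). Its close paralog Aldh1a7 had 803 and 381 in the IR libraries, against 81.9, 171 and 161 in the ctrl libraries, a log2 fold change of 2.07 ± 0.41 (SE, adjusted p = 0.00886 by limma); the call was lost without IR replicate 1 (adjusted p = 0.0624) or ctrl replicate 1 (0.0804). The pair are neighbours on chromosome 19 (Aldh1a1 at 20492715 to 20643465, Aldh1a7 at 20692953 to 20727562), and the handling of reads that fit both by the authors is not given. Aldh2, the mitochondrial enzyme that clears acetaldehyde, had 2803 and 1584 in the IR libraries, against 1606, 1574 and 1643 in the ctrl libraries. Only IR replicate 1 stood above ctrl, and the log2 fold change was 0.39 ± 0.22 (SE, adjusted p = 0.425 by limma); without IR replicate 1 it was -0.021. Aldh3b1, which acts on fatty aldehydes, and Aldh7a1, of lysine breakdown, had both IR values above ctrl without passing. Aldh3b1 had 529 and 671 in the IR libraries, against 241, 348 and 446 in the ctrl libraries, with a log2 fold change of 0.83 ± 0.30 (SE, adjusted p = 0.186 by limma), and Aldh7a1 had 112 and 226 in the IR libraries, against 49.0, 63.9 and 14.5 in the ctrl libraries, with 2.12 ± 0.70 (SE, adjusted p = 0.138 by limma). In both genes IR replicate 2 was the higher of the pair.

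Carbonyl reductases turn aldehydes and ketones into alcohols with NADPH. Of 4 members 1 rose, 0 fell and 3 did not pass, where 1.14% of all genes tested were called higher and 0.36% lower. Cbr2, a mitochondrial carbonyl reductase of mouse lung (chromosome 11, 120729489 to 120732114, minus strand), had the highest mean of the 83 over the 5 libraries. In the ctrl libraries its mean was 2680, below that of Gpx1 at 3535. Cbr2 had 18682 and 9569.7 in the IR libraries, against 2873, 2733 and 2434 in the ctrl libraries. The IR libraries were far apart from each other, yet both were more than triple any ctrl library, and the log2 fold change was 2.32 ± 0.23 (SE, adjusted p = 1.10e-05 by limma). Cbr2 alone took up a large part of the summed values of the 83 genes, which came to 0.781% and 0.440% of the scaled total in the IR libraries, against 0.292%, 0.297% and 0.267% in the ctrl libraries. Without Cbr2 these shares were 0.534% and 0.327% in IR, against 0.252%, 0.260% and 0.234% in ctrl. Cbr1, the cytosolic carbonyl reductase, had 98.1 and 169.9 in the IR libraries, against 102, 38.3 and 57.6 in the ctrl libraries, with overlapping groups and a log2 fold change of 1.07 ± 0.60 (SE, adjusted p = 0.407 by limma).

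The soluble glutathione transferases conjugate glutathione to electrophiles. Of 14 members, 3 rose, 0 fell and 11 did not pass, where 1.14% of all genes tested were called higher and 0.36% lower. The family median log2 fold change was 1.14, against -0.05 over all genes tested. Both alpha-class members rose. Gsta4, which conjugates the lipid peroxidation product 4-hydroxynonenal, had 687 and 483 in the IR libraries, against 162, 73.1 and 121 in the ctrl libraries, a log2 fold change of 2.34 ± 0.40 (SE, adjusted p = 0.00306 by limma). Gsta3, whose promoter holds the antioxidant core printed, had 546 and 333 in the IR libraries, against 172, 122 and 155 in the ctrl libraries, a log2 fold change of 1.52 ± 0.37 (SE, adjusted p = 0.0391 by limma), and passed without IR replicate 2 (adjusted p = 0.0347) but with none of the other 4 libraries left out (0.114, 0.138 and 0.0994 without ctrl replicates 1, 2 and 3, and 0.126 without IR replicate 1). Scaling to library totals (0.0514) and dropping robust estimation (0.0540) also ended its call.

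Gstk1, the kappa-class enzyme of mitochondria and peroxisomes, had 179 and 212 in the IR libraries, against 11.8, 16.4 and 63.5 in the ctrl libraries. All 3 ctrl values were low but ctrl replicate 3 was several times the others. The log2 fold change was 3.01 ± 0.75 (SE, adjusted p = 0.0419 by limma), and the call was lost without ctrl replicate 1 (adjusted p = 0.180), ctrl replicate 2 (0.140) or IR replicate 2 (0.219). It was also lost with array weights (0.0922), without robust estimation (0.0747) and with a minimum mean of 50 (0.0611).

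Among the mu- and omega-class transferases, Gstm1 and Gsto1 had the smallest adjusted p. Gstm1 had 1101 and 735 in the IR libraries, against 420.0, 521 and 439 in the ctrl libraries, a log2 fold change of 0.97 ± 0.26 (SE, adjusted p = 0.0594 by limma), and passed without IR replicate 2 (adjusted p = 0.0373), with array weights (0.0380) and with a pseudocount of 5 (0.0423). Gsto1, which also reduces dehydroascorbate, had 1201 and 707 in the IR libraries, against 629.6, 375 and 447 in the ctrl libraries, a log2 fold change of 0.96 ± 0.28 (SE, adjusted p = 0.0863 by limma), and passed without IR replicate 2 (0.0326). In both genes every IR value was above every ctrl value. Gstm2 had 172 and 80.7 in the IR libraries, against 62.5, 37.4 and 25.5 in the ctrl libraries, also without overlap, and a log2 fold change of 1.57 ± 0.68 (SE, adjusted p = 0.279 by limma). The 3 mu-class members Gstm1, Gstm2 and Gstm4 lie together on chromosome 3 between 107981702 and 108044894, with log2 fold changes of 0.97, 1.57 and 1.31. The pi-class members Gstp1 and Gstp3 had log2 fold changes of 0.24 and -2.87, and none passed. Gstp3 had 0 and 33.6 in the IR libraries, against 60.9, 21.9 and 54.8 in the ctrl libraries, with overlapping groups. Its IR replicate 2 alone deviated from the ctrl mean by -0.31 on the log2 scale. The theta-class members Gstt3, Gstt1 and Gstt2 had log2 fold changes of 2.66, 1.42 and 0.02, and none passed. Gstt3 had 107 and 64.7 in the IR libraries, against 16.9, 13.7 and 8.0 in the ctrl libraries, without overlap.

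Microsomal glutathione transferases sit in membranes. Of 3 members 1 rose, 0 fell and 2 did not pass, where 1.14% of all genes tested were called higher and 0.36% lower. Mgst1, which also reduces lipid peroxides, had 1252 and 1097 in the IR libraries, against 466, 365 and 468 in the ctrl libraries. The libraries of each group were close together and the groups far apart: 1174 ± 109 in IR (SD, n = 2) and 433 ± 59.0 in ctrl (SD, n = 3). The log2 fold change was 1.44 ± 0.25 (SE, adjusted p = 0.00329 by limma), and the adjusted p lay between 0.00644 and 0.0378 with each library left out. Mgst3 had 21.5 and 67.2 in the IR libraries, against 40.5, 48.4 and 48.1 in the ctrl libraries, with a log2 fold change of -0.25 ± 0.80 (SE, adjusted p = 0.918 by limma).

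Sulfotransferases attach sulfate. Of 2 members 1 rose, 0 fell and 1 did not pass, where 1.14% of all genes tested were called higher and 0.36% lower. Sult1d1, which sulfates catecholamines in the mouse, had 258 and 173 in the IR libraries, against 12.6, 70.3 and 17.4 in the ctrl libraries. Ctrl replicate 2 was several times the other ctrl libraries but below both IR libraries, and the log2 fold change was 3.02 ± 0.74 (SE, adjusted p = 0.0391 by limma). The call held without ctrl replicate 2 (adjusted p = 0.0378) and was lost without ctrl replicate 1 (0.173), ctrl replicate 3 (0.0917), IR replicate 1 (0.0893) or IR replicate 2 (0.108), without robust estimation (0.0679) and with a minimum mean of 50 (0.0540). Sult1a1, which sulfates phenols, had 41.1 and 9.2 in the IR libraries, against 4.2, 46.6 and 12.3 in the ctrl libraries, overlapping and with a log2 fold change of 0.48 ± 1.34 (SE, adjusted p = 0.904 by limma).

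Cytochromes P450 were the joint largest family, with 16 members, and 0 passed the limma test in either direction; at an unadjusted p under 0.05 there was 1, Cyp4b1. The family median log2 fold change was 0.41, against -0.05 over all genes tested. Cyp2f2, the club cell P450 that activates naphthalene in the mouse, had 9643 and 3535 in the IR libraries, against 1793, 3239 and 1387 in the ctrl libraries. IR replicate 1 was far above all others, whereas IR replicate 2 was just above ctrl replicate 2. The log2 fold change was 1.54 ± 0.60 (SE, adjusted p = 0.343 by limma), and without robust estimation the adjusted p was 0.0396. Cyp4b1, another P450 abundant in lung, had 315 and 142 in the IR libraries, against 37.1, 67.6 and 57.6 in the ctrl libraries, without overlap, and a log2 fold change of 1.99 ± 0.56 (SE, adjusted p = 0.0723 by limma). Cyp4f18, which in mouse neutrophils hydroxylates leukotriene B4, had 1040.4 and 1155 in the IR libraries, against 707, 767 and 1033 in the ctrl libraries. The lower IR library barely exceeded ctrl replicate 3, and the log2 fold change was 0.41 ± 0.23 (SE, adjusted p = 0.419 by limma). On the lower side, Cyp27a1, the mitochondrial sterol 27-hydroxylase, had 63.6 and 21.8 in the IR libraries, against 74.4, 73.1 and 64.2 in the ctrl libraries, with a log2 fold change of -0.90 ± 0.71 (SE, adjusted p = 0.593 by limma). Cyp4f16 had 57.9 and 92.4 in the IR libraries, against 136, 97.7 and 179 in the ctrl libraries, with -0.86 ± 0.52 (SE, adjusted p = 0.451 by limma). These were the 2 of the 83 genes with both IR libraries below all ctrl libraries.

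Glutathione peroxidases did not pass in any of 6 cases. Gpx1, the selenoenzyme that reduces hydrogen peroxide in the cytosol, had 3869.8 and 3894 in the IR libraries, against 3992, 3172 and 3443 in the ctrl libraries. Its groups overlapped and all 5 values lay within a narrow range, with a log2 fold change of 0.14 ± 0.19 (SE, adjusted p = 0.772 by limma). Gpx4, which reduces lipid peroxides in membranes, had 135 and 198 in the IR libraries, against 88.7, 218 and 168 in the ctrl libraries, a log2 fold change of 0.14 ± 0.46 (SE, adjusted p = 0.919 by limma). Both by value and divided by exon length, Gpx1 had the highest mean ctrl level of the 83 genes, followed by Cbr2 and Cyp2f2. Per kilobase of exon, the scaled level of Gpx1 was 2685 and 2702 in the IR libraries, against 2770.0, 2201 and 2389 in the ctrl libraries. That of Cbr2 was 14078 and 7212 in the IR libraries, against 2165, 2059.6 and 1834 in the ctrl libraries, so the order of the pair turned in both IR libraries.

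Among UDP-glucuronosyltransferases, 0 of 5 passed. All 5 belong to the Ugt1a locus on chromosome 1 (88095062 to 88220002), whose genes overlap and share exons, so their rows are uncertain. The highest, Ugt1a7c, had 588 and 888 in the IR libraries, against 379, 424 and 443 in the ctrl libraries, without overlap. Its log2 fold change was 0.80 ± 0.27 (SE, adjusted p = 0.149 by limma); it passed without IR replicate 1 (adjusted p = 0.0288), and IR replicate 2 was the higher library. Ugt1a5 had 31.8 and 89.3 in the IR libraries, against 5.9, 46.6 and 7.2 in the ctrl libraries, with a log2 fold change of 1.97 ± 1.15 (SE, adjusted p = 0.432 by limma).

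The aldo-keto reductases (8 members), carboxylesterases (3), the epoxide hydrolase Ephx1 and the quinone reductase Nqo2 had 0 calls. Akr1a1, the aldehyde reductase that supplies mouse vitamin C synthesis, had 1798 and 1701 in the IR libraries, against 1591, 1436 and 1321 in the ctrl libraries; the groups did not overlap but the step between them was small, with a log2 fold change of 0.27 ± 0.20 (SE, adjusted p = 0.561 by limma). Akr1b10 had 54.2 and 108 in the IR libraries, against 73.5, 154 and 102 in the ctrl libraries, a log2 fold change of -0.45 ± 0.56 (SE, adjusted p = 0.757 by limma). Ces1d, an esterase that also cleaves triglycerides, had 399 and 210.1 in the IR libraries, against 113, 171 and 81.7 in the ctrl libraries, without overlap and with a log2 fold change of 1.31 ± 0.44 (SE, adjusted p = 0.150 by limma). Ces1f, near the detection floor, had 38.3 and 3.3 in the IR libraries, against 11.8, 0 and 0 in the ctrl libraries, with 2.47 ± 2.19 (SE, adjusted p = 0.643 by limma). Ephx1, the microsomal epoxide hydrolase, had 569 and 300.1 in the IR libraries, against 473, 367 and 558 in the ctrl libraries, overlapping, with a log2 fold change of -0.15 ± 0.31 (SE, adjusted p = 0.862 by limma). Nqo2 had 199 and 48.7 in the IR libraries, against 118, 180.0 and 111 in the ctrl libraries, with -0.43 ± 0.55 (SE, adjusted p = 0.766 by limma); its IR libraries lay on either side of all ctrl libraries.

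The remaining 49 members had means between 8.46 and 477.5 over the 5 libraries and log2 fold changes from -2.87 (Gstp3) to 3.07 (Akr1c14). None passed, the smallest adjusted p being 0.194 (Gstt3), and both IR libraries lay above all ctrl libraries in 8 of them (16.3%, against 15.2% of all genes tested). Precision followed level. Of the 33 members with a mean under 50, 0 passed, as did 0 of 3593 genes tested at that level. Of 29 members with a mean from 50 to 200, 3 passed (10.3%, against 0.409% of all genes at that level called higher); of 15 from 200 to 1000, 5 passed (33.3%, against 1.17%); and of 6 at 1000 or more, 2 passed (33.3%, against 5.67%).

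**Figure D4:**
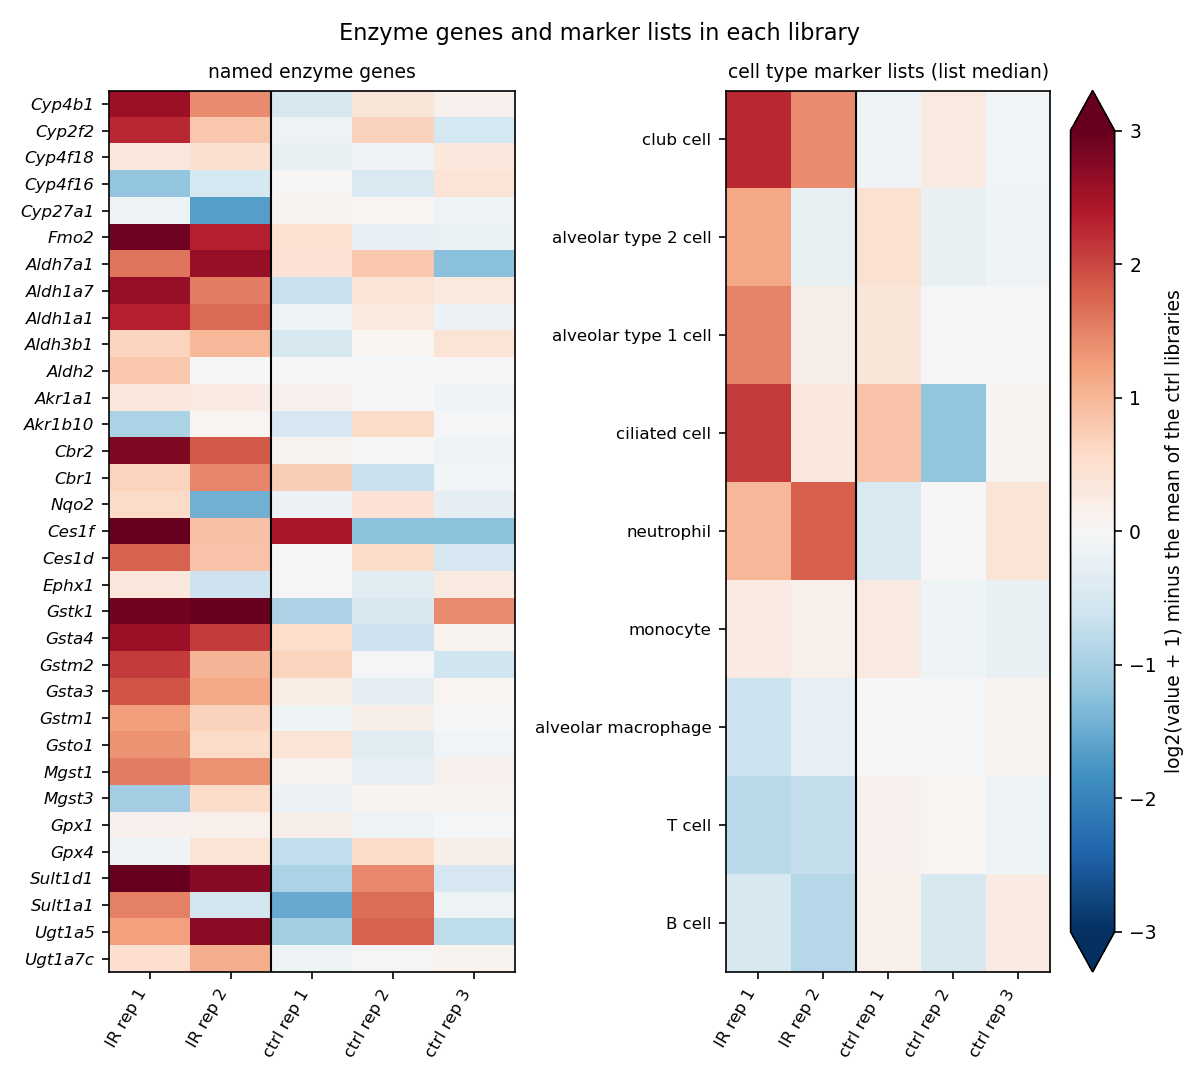
Difference of log2(value + 1) from the mean of the ctrl libraries, for the named enzyme genes (left) and the medians of cell type marker lists (right), in each of the 5 libraries. Fmo2, Aldh1a1 and Cbr2 are raised more in IR replicate 1 than in IR replicate 2, as is the club cell list, while the neutrophil list is raised more in IR replicate 2.

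Deviations of the cell type marker lists from ctrl were as follows. The median log2 deviation of the club cell list from ctrl was 2.26 and 1.42 in IR replicates 1 and 2, that of the neutrophil list 1.01 and 1.80, that of the alveolar type 2 list 1.16 and -0.23, and that of the alveolar macrophage list -0.64 and -0.25. Other epithelial lists were likewise higher mostly in IR replicate 1: the median deviation was 2.10 and 0.32 for ciliated cells, 1.48 and 0.18 for alveolar type 1 cells and 1.52 and 0.01 for pan-epithelial genes. Among these 3 lists Clic5, of the alveolar type 1 list, alone passed, and rose. The T cell list had medians of -0.80 and -0.71, and 2 of 13 fell (Cd3g and Lef1). The B cell list had medians of -0.49 and -0.86, and 1 of 11 fell (Ebf1). Of all genes tested, 0.36% were called lower. Both IR libraries lay below all ctrl libraries in 9 of 13 T cell genes and 6 of 11 B cell genes. That held for 16.3% of all genes tested. The neutrophil markers summed to 74919 and 145302 in the IR libraries, against 30496, 40750 and 54109 in the ctrl libraries. Of 14 tested, 6 rose and 0 fell, where 1.14% of all genes tested were called higher. Both IR libraries lay above all ctrl libraries in all 14, and in 8 of 10 club cell markers. That held for 15.2% of all genes tested. The alveolar type 2 markers summed to 11386 and 4335 in IR, against 7459, 3891 and 4186 in ctrl, and 0 of 10 passed; Lamp3 was at 0 in a library.

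The 10 genes were also set against the summed club cell markers, a sum that was itself higher in both IR libraries than in all ctrl libraries. A gene that rose less than the sum falls on this scale. The cause of the differences was not tested. Per 100 units of that sum, Cbr2 had 16.3 and 16.9 in the IR libraries, against 13.6, 10.9 and 11.5 in the ctrl libraries, and Fmo2 had 1.07 and 1.44 in the IR libraries, against 1.05, 0.538 and 0.665 in the ctrl libraries. Both stayed above ctrl. The other 8 overlapped. Aldh1a1 had 4.80 and 6.16 in the IR libraries, against 4.66, 5.32 and 4.59 in the ctrl libraries per 100 units, and Mgst1 had 1.09 and 1.93 in the IR libraries, against 2.21, 1.45 and 2.22 in the ctrl libraries. Of all genes tested, 0.556% lay above ctrl in both IR libraries on this scale and 74.6% below. The sum is mostly Scgb1a1, so the scale follows that gene. Per 100 units of the summed alveolar type 2 markers, 9 of the 10 genes lay above ctrl in both IR libraries and Mgst1 overlapped, where 2.34% of all genes tested lay above and 17.1% below. Per 100 units of the summed neutrophil markers, Gstk1 alone lay above ctrl and the other 9 overlapped, where 1.04% of all genes tested lay above and 62.8% below. The neutrophil sum was likewise higher in both IR libraries than in all ctrl libraries.

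Genes that supply or control these enzymes were examined in 8 lists. Of 124 genes tested, 10 rose, 0 fell and 114 did not pass, against 1.14% of all genes tested called higher and 0.36% lower (1.5% in either direction); 3 had a negative fold change at an unadjusted p under 0.05. The median log2 fold change was 0.26. Leaving out ctrl replicate 1, 2 or 3 gave 0, 1 and 5 genes called higher and 0 lower. In those runs 0.219%, 0.274% and 0.869% of all genes tested were called higher. In glutathione synthesis and recycling, 2 of 23 rose. Gsr, which returns oxidised glutathione to its reduced form, had 6745 and 10241 in the IR libraries, against 3984, 4790.3 and 4900.0 in the ctrl libraries, a log2 fold change of 0.87 ± 0.20 (SE, adjusted p = 0.0258 by limma). Ggt5, which cleaves glutathione conjugates such as leukotriene C4, had 186 and 389 in the IR libraries, against 54.0, 76.7 and 71.5 in the ctrl libraries, with 1.997 ± 0.50 (SE, adjusted p = 0.0419 by limma). In both genes IR replicate 2 was the higher.

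Among thioredoxin, peroxiredoxin and other antioxidant enzymes 3 of 23 rose. Prdx6, a peroxiredoxin abundant in lung, had 3645 and 3059.6 in the IR libraries, against 1367, 1393 and 1661 in the ctrl libraries, a log2 fold change of 1.19 ± 0.20 (SE, adjusted p = 0.00306 by limma). Msrb1, which repairs oxidised methionine, had a log2 fold change of 1.14 ± 0.24 (SE, adjusted p = 0.0243 by limma), and Cat, the catalase that breaks down hydrogen peroxide, of 0.90 ± 0.23 (SE, adjusted p = 0.0478 by limma). Among other enzymes of drug metabolism 3 of 26 rose. Ptgr1, a reductase of prostaglandins and leukotrienes, had 252 and 198 in the IR libraries, against 37.1, 26.5 and 22.6 in the ctrl libraries, a log2 fold change of 2.94 ± 0.63 (SE, adjusted p = 0.0201 by limma); the reductase Dhrs7 had 0.97 ± 0.23 (SE, adjusted p = 0.0370 by limma) and the xanthine oxidoreductase Xdh 1.07 ± 0.26 (SE, adjusted p = 0.0429 by limma).

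Targets of NRF2, the transcription factor that responds to electrophiles, rose in 3 of 15 cases, where 1.14% of all genes tested were called higher. These were Ptgr1, Osgin1, an oxidative stress response gene, with 1.09 ± 0.26 (SE, adjusted p = 0.0391 by limma), and Taldo1, of the pentose phosphate pathway, with 0.84 ± 0.19 (SE, adjusted p = 0.0276 by limma). The other 12 did not pass. All 12 are named here, outside the naming rule, with their log2 fold changes. Hmox1 had -0.14, Gclm 0.11, Gclc 0.32, Abcc1 -0.38, Abcc4 -0.05 and Slc7a11 0.79, each with overlapping groups. Me1 had 1.38, Srxn1 0.64, G6pdx 0.61, Txnrd1 0.50, Pgd 0.48 and Tkt 0.48, each with both IR libraries above all ctrl libraries. Both IR libraries lay above all ctrl libraries in 9 of the 15, against 15.2% of all genes tested. None of 10 NRF2 regulators passed; Sqstm1 and Bach1, the 2 with the highest mean, had changes on the log2 scale of 0.09 (adjusted p = 0.865 by limma) and 0.17 (adjusted p = 0.746 by limma). Nfe2l2, which encodes NRF2 and is named here outside the naming rule, had 1512 and 2606 in the IR libraries, against 1364, 1555 and 1372 in the ctrl libraries, with overlapping groups and a log2 fold change of 0.48 ± 0.23 (SE, adjusted p = 0.323 by limma). None of 11 xenobiotic receptors and partners, 11 P450 redox partners or 14 drug and conjugate transporters passed. Por, the reductase that feeds electrons to microsomal P450s, had 2694 and 2164 in the IR libraries, against 1122, 1741 and 1325 in the ctrl libraries, without overlap and with a log2 fold change of 0.81 ± 0.22 (SE, adjusted p = 0.0593 by limma), and Cyb5r3, a cytochrome b5 reductase, had -0.01 (adjusted p = 0.989 by limma). Tiparp and Nr3c1 led the receptor list by level, with changes on the log2 scale of 0.71 (adjusted p = 0.0939 by limma) and -0.29 (adjusted p = 0.544 by limma). Of the transporters, Abcc5, which exports cyclic nucleotides, had -0.29 (adjusted p = 0.641 by limma). Of the 10 supporting genes that rose, 7 were higher in IR replicate 2 and 3 (Cat, Prdx6 and Ptgr1) in IR replicate 1, whereas 9 of the 10 enzyme genes were higher in IR replicate 1; that contrast was not tested.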

How the data were processed

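RNA from sorted CD45+ lung cells was made into libraries with the SMARTer Stranded Pico kit, per the labels' protocols. Per the submitters' processing notes, HISAT2, HTSeq and mm10 were used. Sources used here do not give the annotation, strand setting, scaling or gene filter. The deposited values are a signal, read counts scaled by the authors between libraries, with 1 decimal; whole reads could not be recovered from their steps, so no count model was run and counting error is unknown.

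Genes that reached 10 in 2 or more libraries (12777 of 14462 rows) were fitted on log2(value + 1) with limma 3.58.1 (R 4.3.3) with a mean trend and robust estimation, without covariates, two-sided. Fold changes on this scale understate low genes. The procedure was also run on simulated data with independent noise at the spread of the ctrl libraries. That setting held no library set apart as IR replicate 2 is. Settings tried were scaling (totals, trimmed mean of M values, median ratios), pseudocount, filter, robustness, array weights and each library left out. Named were called members, the 2 highest per family, and up to 2 per family and direction with non-overlapping groups and a mean of at least 50; for lists, up to 4 called genes or else the 2 highest. Members and lists were chosen with earlier results of these data known. GENCODE vM21 (GRCm38) gave coordinates and exon lengths for all 83 members. Some genes are not reported here by name, with their values. Reads of near-identical or overlapping genes may be shared between rows.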

Additional observations from a re-analysis of the deposited data

How the results depend on the processing

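No paired analysis was possible because the labels give no number, batch or day shared between IR and ctrl libraries. With no filter on low values 4 enzyme genes were higher in IR, against 10 as reported. In that run 18 of all genes (0.124%) and 1 supporting gene passed. Under the other settings that kept all libraries 8 to 11 enzyme genes were higher, 7 to 10 of them among those 10. Under these, 0.837% to 1.55% of all genes tested were called higher, against 1.14% as reported. Enzyme genes lower in IR numbered 0 in any setting. With each library left out, 5 to 10 enzyme genes were higher, and all genes called ranged from 30 to 1042, against 192 with all libraries. Supporting genes called ranged from 0 to 17, against 10, and were 4 without robust estimation. Without ctrl replicate 1 the enzyme genes were 5 and the supporting genes 0. Scaling to library totals moved the median of all genes to -0.17 (log2), against -0.05, and the share of calls that were higher to 54.9%, against 76.0%, with 9 enzyme genes higher. Positive fold changes numbered 59 to 72 of the 83 with a library left out. With all libraries they numbered 68, where 46.8% of all genes tested were positive. Among the named enzyme genes, 7 that did not pass turned sign, and their log2 fold changes ranged from -0.94 to 0.047 for Akr1b10, -0.021 to 0.80 for Aldh2, -0.61 to 0.31 for Ephx1, -0.23 to 0.42 for Gpx4, -1.05 to 0.55 for Mgst3, -1.43 to 0.58 for Nqo2 and -0.54 to 1.501 for Sult1a1. For Akr1b10, Mgst3, Aldh2 and Sult1a1 the sign turned without IR replicate 1, for Ephx1, Nqo2 and Gpx4 (-0.14) without IR replicate 2, and for Gpx4 and Sult1a1 (-0.28) without ctrl replicate 1. Without a filter 14462 rows were tested, against 12777. The cause of the changes under this and the other settings was not tested. The count models were not run, since whole reads were not recovered.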

Other observations

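The 15 genes with a name of these families that lay under the level for testing were mostly near 0, with exceptions in single libraries. Nqo1, the quinone reductase widely used as a readout of NRF2, had 44.0 and 1.6 in the IR libraries, against 0, 0 and 1.4 in the ctrl libraries. Cyp2a5, a P450 of mouse airway and liver, had 65.5 in IR replicate 1 and was at 0 in the other libraries. Cyp2r1, a vitamin D 25-hydroxylase, had 0.9 and 69.2 in the IR libraries, against 0, 8.2 and 8.0 in the ctrl libraries. Others were highest in a ctrl library. Cyp2j6 had 0 and 0 in the IR libraries, against 18.6, 5.5 and 2.9 in the ctrl libraries. Aldh3b2 had 1.9 and 0 in the IR libraries, against 0, 0 and 18.3 in the ctrl libraries. The highest value of each of these genes rests on 1 library.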
